A study of Mus musculus with 12 samples.

Results

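Interferon-beta, interleukin-10 (IL-10) and the receptor chains of the interferon and IL-10 systems were described as a set of 8 genes of the 54532 in the expression table. The set holds 2 secreted ligands, Ifnb1 (interferon-beta) and Il10, and 6 receptor chains. The chains are Ifnar1 and Ifnar2 (the type I interferon receptor), Ifngr1 and Ifngr2 (the interferon-gamma receptor), and Il10ra and Il10rb (the IL-10 receptor). Genes were found by these mouse symbols, and each symbol matched 1 Ensembl gene. The study sequenced RNA from wild-type mouse bone marrow cultures. Macrophages had been expanded with CMG, which supplies M-CSF, their growth factor. Osteoclasts, the cells that resorb bone, were derived from such macrophages with RANKL, the cytokine that drives their formation. The RANKL dose is given as 100 ng/mL in the sample source and as a range in the protocol. On day 5, cells of each type received either no treatment or 100 ng/mL lipopolysaccharide (LPS, from the outer membrane of Gram-negative bacteria) for 3 h, and each of the 4 groups held 3 libraries. All groups shared the wild-type genotype and the CMG culture. The labels give neither the age and sex of the mice nor whether replicates came from separate animals or cultures, so p-values measure only the spread between these samples, which may be technical.

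Interferon-beta is made after LPS binds Toll-like receptor 4 (Tlr4), whose signal through the adaptors Ticam2 and Ticam1 reaches the kinase Tbk1 and the transcription factor Irf3. It acts back on the producing cell and its neighbours through the paired chains Ifnar1 and Ifnar2, the kinases Jak1 and Tyk2, and the factors Stat2 and Irf9, and in the osteoclast lineage it is known as a brake on formation of the cell. IL-10 binds Il10ra, which pairs with Il10rb and signals mainly through Stat3 to limit inflammatory output. Interferon-gamma binds Ifngr1, which pairs with Ifngr2 and signals through Jak1 and Jak2. Il10rb is shared with other receptors of the family.

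The labels matched the cells' marker genes. The summed level of 10 osteoclast markers lay between 16.3 and 29.0 FPKM (fragments per kilobase of gene, scaled per library) in the macrophage libraries and between 29220 and 32220 FPKM in the osteoclast libraries. Assigned reads ranged from 15651763 to 20281452 per library, and mitochondrial genes took 1.27% to 1.62% of reads in macrophages and 5.16% to 6.18% in osteoclasts. LPS-treated osteoclast replicate 2 stood apart. It was the lowest of its 3 libraries for 215 of the 242 genes (88.8%) that rose by at least 1 on the log2 scale in osteoclasts, and for 6 of 8 macrophage markers. The part of these differences in the results was not tested, and results in LPS-treated osteoclasts are given with and without that library where it matters. In such bulk samples, fewer cells of a type and less RNA per cell cannot be told apart.

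Stretches upstream of 3 members are shown because the genes behaved differently under LPS: Ifnb1 went from no reads to a mean of 60.2 FPKM in macrophages, Ifnar2 rose by about the same fold as its partner chain in macrophages, and Ifngr2 was the receptor chain with the smallest gap between the cell types under LPS on the deposited scale. They are RefSeq sequences on GRCm38.p6, counted from the RefSeq transcript start, and capitals mark matches to the motifs named after them. The Ifnb1 stretch is chr4:88522865-88522964 on the minus strand, positions -170 to -71. The Ifnar2 stretch is chr16:91372533-91372782 and the Ifngr2 stretch is chr16:91546809-91547058, each on the plus strand and covering positions -250 to -1.
Ifnb1: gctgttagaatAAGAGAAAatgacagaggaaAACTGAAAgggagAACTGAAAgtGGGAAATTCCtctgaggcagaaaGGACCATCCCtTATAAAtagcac
Ifnar2: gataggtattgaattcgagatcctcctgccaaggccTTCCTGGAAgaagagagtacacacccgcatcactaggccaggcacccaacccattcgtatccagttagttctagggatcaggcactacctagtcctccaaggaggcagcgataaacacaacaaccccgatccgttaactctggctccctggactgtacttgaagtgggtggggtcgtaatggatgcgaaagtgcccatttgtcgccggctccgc
Ifngr2: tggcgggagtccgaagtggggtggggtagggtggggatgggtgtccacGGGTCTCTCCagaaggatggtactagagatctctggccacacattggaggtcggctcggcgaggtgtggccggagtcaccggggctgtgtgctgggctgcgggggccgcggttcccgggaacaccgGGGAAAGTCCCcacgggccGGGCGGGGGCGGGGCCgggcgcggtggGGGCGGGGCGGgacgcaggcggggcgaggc

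The 250 bases before the start were searched on both strands for 7 motifs, in 5 members with a RefSeq window (Ifnb1, Ifnar1, Ifnar2, Ifngr1 and Ifngr2). The Ifnb1 window held 3 matches to AANNGAAA, the core of interferon regulatory factor sites, which is present in 21.3% of all 32851 RefSeq promoter windows of that length. It also held 2 matches to GGGNNNNNCC, an NF-kB pattern found in 45.8% of windows, and 2 to TATAAA, found in 12.4%, of which the match at -210 lies outside the printed stretch. The Ifnar1 window held 2 matches to GGGCGG, the GC box (32.7% of windows), and the Ifnar2 window held 1 match to TTCNNNGAA, the STAT pattern (7.02% of windows). The RefSeq gene span of Ifnar1 begins inside its window, at 91485032, so its 2 GC boxes lie within that span. The Ifngr1 window held 1 NF-kB match and 2 GC boxes. The Ifngr2 window held 4 NF-kB matches, of which a pair overlap each other and another overlaps a GC box, and 4 GC boxes. None of the 5 windows matched TGANTCA (AP-1, 6.75% of windows) or TGACGTCA (CRE, 1.55% of windows). The Ifnb1 window had 39.6% G and C bases and 1 CpG, and the 4 receptor windows had 54% to 74% and 11 to 25 CpGs. Across all windows the median was 52.4% and 6 CpGs. A match is a string of letters and not a measured binding site.

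On the deposited scale, LPS raised 7 of the 8 genes in macrophages (limma, adjusted p under 0.05 by Benjamini-Hochberg over 11335 genes), and Il10rb was not called. Of all genes tested, 69.9% were called in this comparison, 36.8% higher and 33.1% lower. In osteoclasts 4 of the 8 genes rose and none was called lower, where 17.7% of all genes were called, 11.1% higher and 6.59% lower. The median log2 difference of the 8 genes was 1.05 in macrophages and 0.13 in osteoclasts, beside 0.02 and 0.01 over all genes tested. The LPS effect was smaller in osteoclasts than in macrophages for 7 of the 8 genes by the interaction term, beside 56.6% of all genes tested with a called interaction, 26.6% higher and 30% lower. The median interaction of the 8 genes was -1.04, beside -0.01 over all genes. Ifnb1 passed the filter on low values only through LPS-treated macrophages and Il10 only through the LPS-treated groups, so their part in these counts followed from the filter. Adding 1 before taking log2 shrinks the differences of genes with low FPKM. Libraries of the groups compared were apart, without overlap, for all 8 genes under LPS in macrophages (74% of all genes tested) and for 5 of the 8 in osteoclasts (34%).

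**Figure D1:**
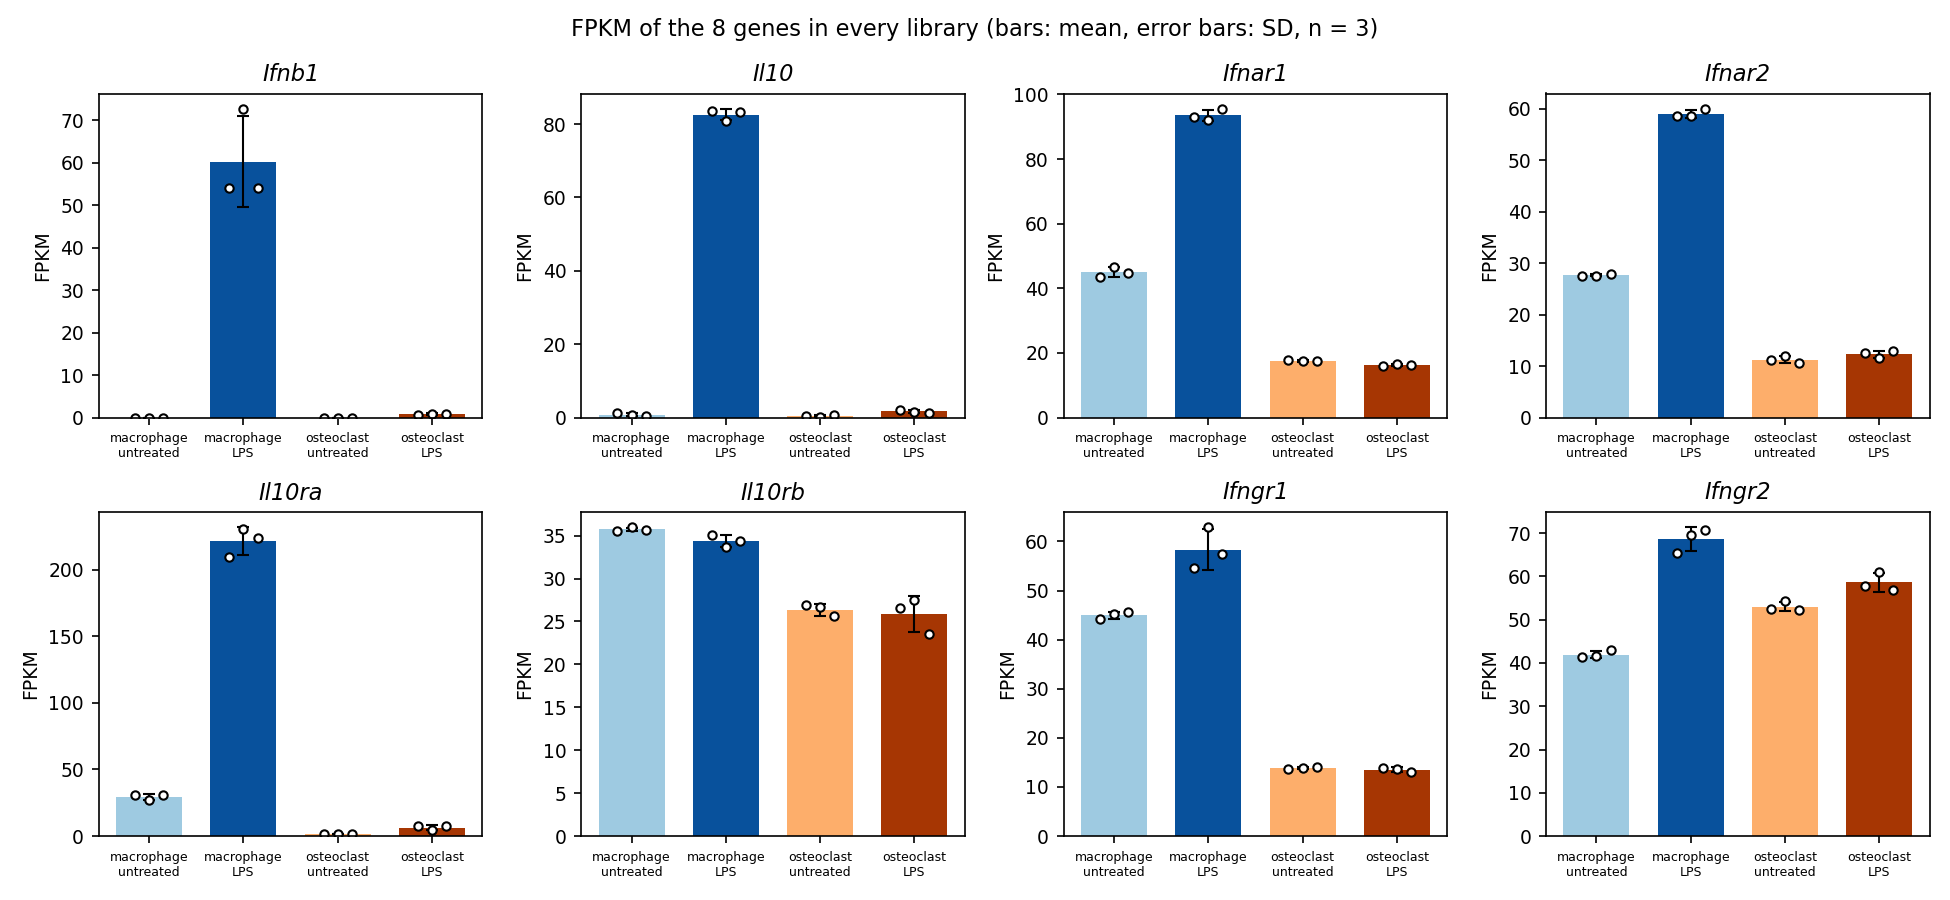
FPKM (vertical axis, linear, starting at 0) of the 8 genes in the 4 groups, with bars for the mean, error bars for the SD and points for the 3 libraries. Ifnb1 and Il10 reach means of 60.2 and 82.6 FPKM in LPS-treated macrophages and stay at or below 2.12 FPKM in every other library.

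Ifnb1 (ENSMUSG00000048806, GRCm38 chromosome 4, 88522025 to 88522774, minus strand) had no read in any of the 6 untreated libraries. A count of 0 allows up to 3 reads per library, or a mean of 0.174 FPKM in untreated macrophages and 0.230 FPKM in untreated osteoclasts. In LPS-treated macrophages it stood at 54.0, 72.6 and 54.1 FPKM in replicates 1 to 3, from 517, 813 and 570 reads. In LPS-treated osteoclasts it stood at 0.539, 0.865 and 0.95 FPKM, from 8, 10 and 13 reads. Against these floors, the macrophage mean was 346-fold higher with LPS than without, and the osteoclast mean 3.42-fold higher. These folds take the means with LPS as exact and are not strict bounds. Replicate 2 held the highest value among the LPS-treated macrophages, and the LPS-treated groups did not overlap.

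The log2 difference of Ifnb1 was 5.92 (SE 0.113, adjusted p = 6.98e-13, limma) in macrophages and 0.83 (SE 0.113, adjusted p = 0.000286) in osteoclasts. These fitted values depend on the pseudocount because the untreated groups were at 0. In macrophages and osteoclasts they were 9.22 and 3.11 with a pseudocount of 0.1, and 11.01 and 4.37 by voom on recovered reads. Under LPS, Ifnb1 was 76.8-fold lower in osteoclasts than in macrophages by group means, and the interaction was -5.09 (SE 0.160, adjusted p = 2.43e-10, limma). The 20 other interferon genes searched, which include Ifna genes, Ifng and lambda interferons, together had 13 reads in LPS-treated macrophages, 1 read in untreated macrophages and 0 in osteoclasts. None of those 20 genes passed the filter on low values. The floors cover counting error only, since reads without molecular identifiers are not independent molecules.

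Il10 (ENSMUSG00000016529, chromosome 1, 131019845 to 131024974, plus strand) was low but detected without LPS. Untreated macrophages held 1.15, 0.649 and 0.480 FPKM in replicates 1 to 3, from 35, 20 and 14 reads. Untreated osteoclasts held 0.538, 0.181 and 0.674 FPKM, from 13, 4 and 15 reads. These untreated groups overlapped, and their log2 difference was -0.26 (adjusted p = 0.14, limma).

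With LPS, Il10 reached 83.5, 80.8 and 83.4 FPKM in macrophages and 2.12, 1.63 and 1.34 FPKM in osteoclasts. The LPS-treated libraries lay above the untreated libraries in each cell type without overlap. By group means the rise was 109-fold in macrophages (log2 difference 5.59, SE 0.155, adjusted p = 1.43e-11, limma) and 3.66-fold in osteoclasts (0.89, SE 0.155, adjusted p = 0.00178). The level in LPS-treated osteoclasts was 48.6-fold below that in LPS-treated macrophages, and the interaction was -4.70 (SE 0.219, adjusted p = 5.25e-09, limma).

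Without LPS-treated osteoclast replicate 2, the osteoclast log2 difference was 0.79 for Ifnb1 (adjusted p = 0.00139, limma) and 0.90 for Il10 (adjusted p = 0.00543, limma). Neither ligand had its lowest value in that library: Ifnb1 was lowest in replicate 1 and Il10 in replicate 3.

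Ifnar1 (ENSMUSG00000022967, chromosome 16, 91485238 to 91507441, plus strand), the chain that docks Tyk2, stood at 43.5, 46.6 and 44.8 FPKM in untreated macrophages. It stood at 93.0, 92.1 and 95.5 FPKM in LPS-treated macrophages, 2.08-fold higher. Untreated osteoclasts held 17.8, 17.4 and 17.4 FPKM and LPS-treated osteoclasts 16.1, 16.4 and 16.3 FPKM. The 4 groups of libraries were apart at every step of this order.

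The log2 difference of Ifnar1 with LPS was 1.04 in macrophages (SE 0.035, adjusted p = 7.14e-11, limma). In osteoclasts it was -0.10 (SE 0.035, adjusted p = 0.0655, limma), which did not pass the threshold although the libraries were apart. The difference between untreated osteoclasts and untreated macrophages was -1.31 (adjusted p = 6.6e-12, limma), and the interaction was -1.14 (SE 0.049, adjusted p = 2.61e-09).

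Ifnar2 (ENSMUSG00000022971, chromosome 16, 91372783 to 91405589, plus strand), the high-affinity chain of the type I interferon receptor, rose from 27.5, 27.5 and 27.9 FPKM to 58.5, 58.6 and 59.9 FPKM in macrophages, 2.13-fold. In osteoclasts it held 11.2, 11.9 and 10.5 FPKM without LPS and 12.5, 11.6 and 12.9 FPKM with it. The macrophage groups were apart and the osteoclast groups overlapped. The log2 difference was 1.07 in macrophages (SE 0.048, adjusted p = 1.2e-09, limma) and 0.13 in osteoclasts (SE 0.048, adjusted p = 0.099), with an interaction of -0.94 (SE 0.068, adjusted p = 2.36e-07). Without LPS-treated osteoclast replicate 2, the osteoclast difference was 0.17 and passed the threshold (adjusted p = 0.0321, limma). Before LPS, Ifnar2 was lower in osteoclasts, with a difference of -1.23 (adjusted p = 2.11e-10, limma).

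Il10ra (ENSMUSG00000032089, chromosome 9, 45253837 to 45269149, minus strand), the ligand-binding chain of the IL-10 receptor, had the widest range of levels among the receptor chains. Untreated macrophages held 30.7, 26.8 and 30.9 FPKM and LPS-treated macrophages 209.6, 230.2 and 223.6 FPKM. Untreated osteoclasts held 1.49, 1.44 and 1.61 FPKM and LPS-treated osteoclasts 7.48, 4.49 and 7.24 FPKM. All 4 groups were apart, and LPS-treated osteoclasts stayed below untreated macrophages.

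Il10ra rose 7.51-fold in macrophages (log2 difference 2.87, SE 0.133, adjusted p = 1.51e-09, limma) and 4.23-fold in osteoclasts (1.53, SE 0.133, adjusted p = 6.6e-06). Osteoclasts were 19.5-fold below macrophages without LPS (log2 difference -3.60, adjusted p = 1.29e-10, limma) and 34.6-fold below them with LPS (-4.93, adjusted p = 5.5e-12). The interaction was -1.34 (SE 0.188, adjusted p = 7.01e-05, limma), and it was smaller with a pseudocount of 0.1, at -0.93 (adjusted p = 0.00345), and by voom on recovered reads, at -0.84 (adjusted p = 0.00588). Replicate 2 was the lowest of the LPS-treated osteoclasts for this gene. Without it, the osteoclast effect was 1.73 (adjusted p = 8.59e-09, limma) and the interaction -1.14 (adjusted p = 9.86e-07).

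Il10rb (ENSMUSG00000022969, chromosome 16, 91406164 to 91425834, plus strand), the shared signalling chain, had nearly the same FPKM with and without LPS on the deposited scale. Untreated macrophages held 35.5, 36.0 and 35.7 FPKM and LPS-treated macrophages 35.1, 33.7 and 34.4 FPKM. Untreated osteoclasts held 26.9, 26.6 and 25.6 FPKM and LPS-treated osteoclasts 26.6, 27.5 and 23.5 FPKM. The LPS effect was -0.05 in macrophages (SE 0.051, adjusted p = 0.379, limma) and -0.03 in osteoclasts (adjusted p = 0.73), and the interaction was 0.02 (adjusted p = 0.827). These values depended on the scale, and the macrophage effect was called lower under TPM and quantile normalization, at -0.70 and -0.62. The interaction was then called higher, at 0.59 (adjusted p = 1.62e-05, limma) and 0.51 (adjusted p = 3.01e-05). The osteoclast level was lower, with a difference of -0.42 without LPS (adjusted p = 8.01e-06, limma) and -0.40 with it (adjusted p = 1.05e-05). These were -0.85 and -0.25 under TPM and -0.63 and -0.12 under quantile normalization, all called, so their near equality held on the deposited scale only.

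Ifngr1 (ENSMUSG00000020009, chromosome 10, 19591949 to 19610229, plus strand), the ligand-binding chain of the interferon-gamma receptor, stood at 44.1, 45.2 and 45.6 FPKM in untreated macrophages and 54.7, 62.9 and 57.4 FPKM in LPS-treated macrophages. Untreated osteoclasts held 13.7, 13.9 and 14.1 FPKM and LPS-treated osteoclasts 13.92, 13.65 and 12.99 FPKM. The osteoclast groups overlapped and lay below every macrophage library. The LPS effect was 0.36 in macrophages (SE 0.049, adjusted p = 2.84e-05, limma) and -0.04 in osteoclasts (adjusted p = 0.664), with an interaction of -0.40 (SE 0.069, adjusted p = 0.000342), and both the macrophage effect and the interaction had the opposite sign under TPM and quantile normalization. The difference between untreated cell types was -1.63 (adjusted p = 2.02e-11, limma).

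Ifngr2 (ENSMUSG00000022965, chromosome 16, 91547072 to 91565623, plus strand), its partner chain, was the only member with a higher level in untreated osteoclasts than in untreated macrophages on the deposited scale, and it was not called higher under TPM. Untreated macrophages held 41.4, 41.6 and 42.9 FPKM and untreated osteoclasts 52.5, 54.3 and 52.3 FPKM. With LPS, macrophages held 65.5, 69.5 and 70.8 FPKM and osteoclasts 57.9, 61.0 and 56.9 FPKM. All 4 groups were apart, and on the deposited scale the order of the cell types under LPS was the opposite of that without it. Under either rescaling the difference had the same sign in both conditions.

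The log2 difference of Ifngr2 between untreated cell types was 0.33 (adjusted p = 9e-06, limma) and that between LPS-treated cell types -0.22 (adjusted p = 0.000224). Under TPM neither was called, at -0.08 without LPS (adjusted p = 0.139, limma) and -0.07 with it (adjusted p = 0.206). Under quantile normalization osteoclasts were higher in both, at 0.10 (adjusted p = 0.0246, limma) and 0.12 (adjusted p = 0.0101). The LPS effect was 0.70 in macrophages (SE 0.040, adjusted p = 1.17e-08, limma) and 0.14 in osteoclasts (SE 0.040, adjusted p = 0.0304). The osteoclast call was lost without untreated replicate 1 (0.13, adjusted p = 0.0869), without untreated replicate 3 (0.13, adjusted p = 0.104), without LPS-treated replicate 1 (0.15, adjusted p = 0.0505) and without LPS-treated replicate 2 (0.11, adjusted p = 0.0835). The interaction was -0.55 (SE 0.057, adjusted p = 4.73e-06, limma), and it was 0.01 under TPM and 0.02 under quantile normalization, with no call.

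**Figure D2:**
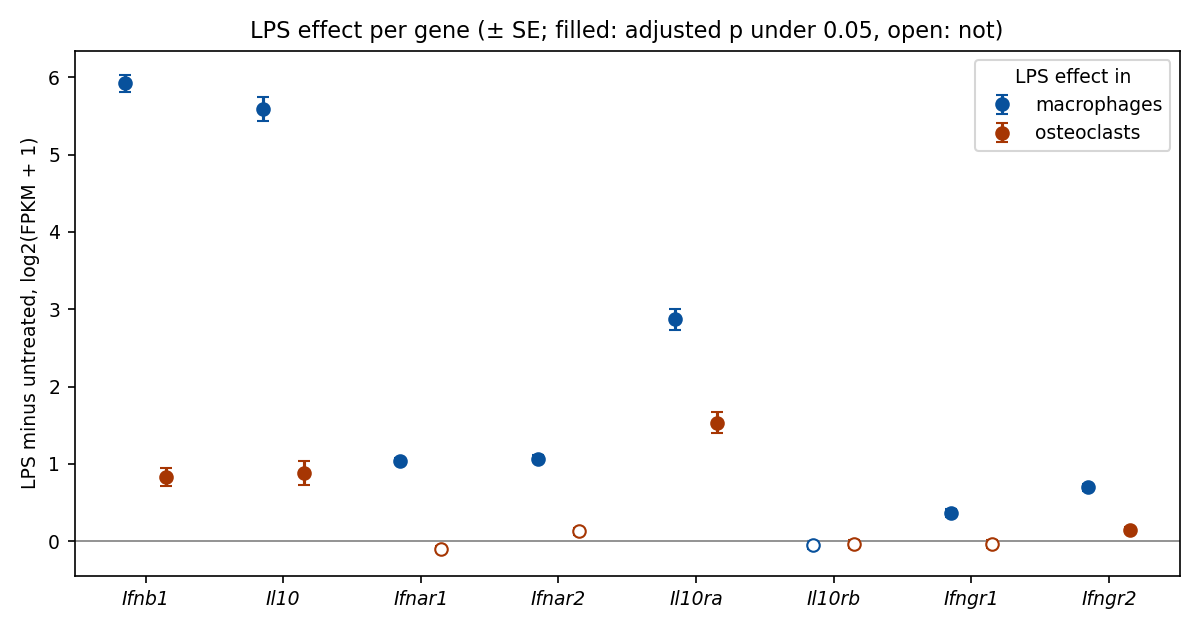
LPS effect of each gene on the deposited scale, as log2(FPKM + 1) (vertical axis), in macrophages (blue) and osteoclasts (brown), with points for the fitted difference over 3 against 3 libraries, bars for the SE (hidden where smaller than the point) and filled points for an adjusted p under 0.05. Effects in macrophages run from -0.05 for Il10rb to 5.92 for Ifnb1, and those in osteoclasts from -0.10 for Ifnar1 to 1.53 for Il10ra.

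Between untreated cell types, 5 members were lower in osteoclasts (Il10ra, Ifngr1, Ifnar1, Ifnar2 and Il10rb), 1 was higher (Ifngr2), and the ligands were not called. Of all genes tested, 77.8% were called there, 38.8% higher and 39% lower. Under LPS, all 8 members were lower in osteoclasts on the deposited scale, where 83.9% of all genes were called, 40.9% higher and 43% lower. For Ifnb1 this direction followed from the filter, which it passed only through LPS-treated macrophages. The median log2 difference of the 8 genes was -0.83 without LPS and -2.31 with it, beside 0.00 and -0.02 over all genes tested. Libraries were apart for 6 of the 8 genes between untreated cell types (81.4% of all genes tested) and for all 8 under LPS (83.6%). The comparison under LPS and that of LPS in macrophages share the LPS-treated macrophage libraries.

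The deposited values are scaled to the typical gene, and this choice set the sign of some receptor effects. Rescaling each library to a fixed total (TPM) moved the median LPS effect of all genes tested in macrophages to -0.55, and quantile normalization moved it to -0.14. The split of the 7 called members in macrophages went from 7 higher and 0 lower to 5 higher and 2 lower under either rescaling, as the split over all genes went from 4168 higher and 3753 lower to 1797 and 7933 under TPM and 3051 and 5193 under quantile normalization. Ifngr1 was then lower with LPS in macrophages, at -0.27 under TPM (adjusted p = 0.000445, limma) and -0.28 under quantile normalization (adjusted p = 0.000168). Il10rb was lower too, at -0.70 and -0.62 (adjusted p = 8.09e-08 and 1.14e-07, limma), and Ifngr2 was no longer called, at 0.06 and 0.04.

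Ifnar1 and Ifnar2 still rose in macrophages, with smaller effects of 0.41 and 0.44 under TPM and 0.36 and 0.51 under quantile normalization. Il10ra rose by 2.25 and 2.19. In osteoclasts the split of called members went from 4 higher and 0 lower to 3 and 1 under either rescaling, with Ifnar1 called lower at -0.18 and -0.19 (adjusted p = 0.0116 and 0.00146, limma) and Ifngr2 not called. Over all genes that split turned as well, from 1261 higher and 747 lower to 940 and 1221 under TPM and 947 and 1514 under quantile normalization. The split between untreated cell types went to 0 higher and 6 lower under TPM, where all genes split into 2760 and 6457. That between LPS-treated cell types went to 1 higher and 7 lower under quantile normalization, where all genes split into 5194 and 4328. The interaction split went from 0 higher and 7 lower to 1 and 5 under either rescaling, where Il10rb was the higher gene and Ifngr1 and Ifngr2 were not called. The interactions of all genes split into 3012 higher and 3401 lower on the deposited scale, 7175 and 1572 under TPM, and 4090 and 2734 under quantile normalization. The interaction of Ifnar1 fell in size to -0.58 under TPM and -0.55 under quantile normalization, and that of Ifnar2 to -0.38 and -0.46, all called. The interaction of Il10ra was -0.49 under TPM (adjusted p = 0.0379, limma) and -0.71 under quantile normalization (adjusted p = 0.00587). The ligands kept their direction and call in each LPS effect and in the interaction under both rescalings.

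**Figure D3:**
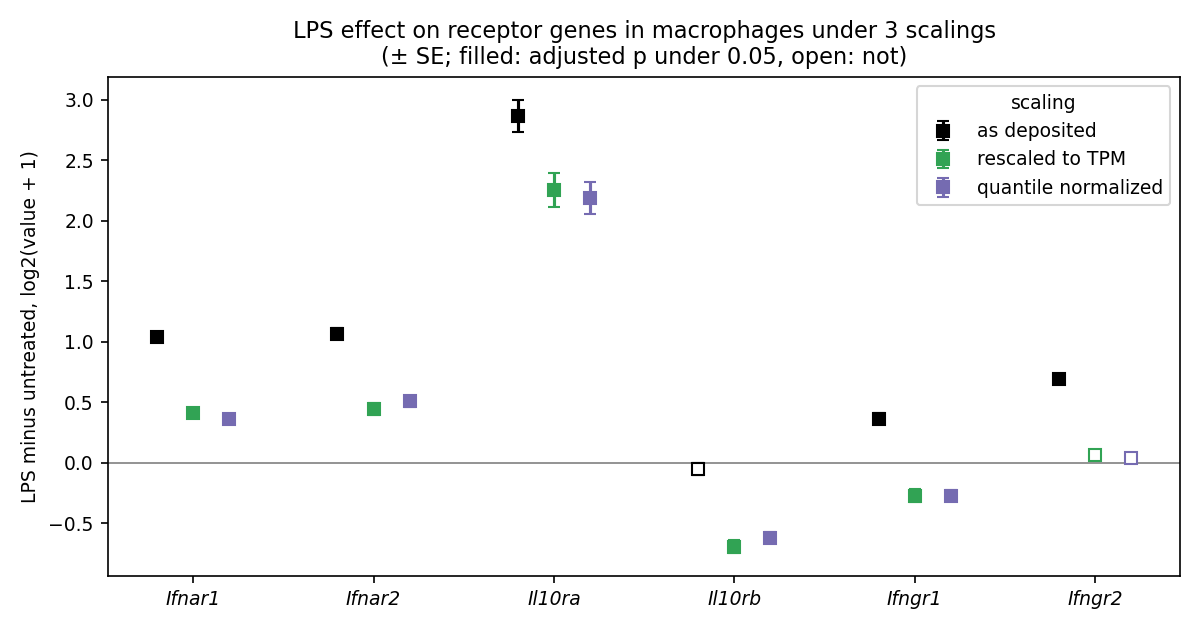
LPS effect in macrophages on the 6 receptor chains (vertical axis, log2 of value + 1) for the deposited scale (black), TPM (green) and quantile normalization (violet), with bars for the SE (hidden where smaller than the square) and open squares where the adjusted p was not under 0.05. Il10ra, Ifnar1 and Ifnar2 lie above 0 on each scale, Ifngr1 changes from 0.36 to -0.27 and -0.28, and Il10rb changes from -0.05 to -0.70 and -0.62.

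A ratio of the chains of a receptor within a library does not depend on the scale of that library. The ratio of Ifnar1 to Ifnar2 was 1.63 ± 0.06 (SD, n = 3) in untreated macrophages, 1.59 ± 0.01 in LPS-treated macrophages and 1.57 ± 0.10 in untreated osteoclasts. In LPS-treated osteoclasts it was 1.32 ± 0.09, and the 3 libraries (1.29, 1.42 and 1.26) lay below all of the others. Ifnar1 was thus the more abundant chain per length in each group.

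The ratio of Ifngr1 to Ifngr2 was 1.07 ± 0.01 in untreated macrophages, 0.850 ± 0.049 in LPS-treated macrophages, 0.262 ± 0.007 in untreated osteoclasts and 0.231 ± 0.009 in LPS-treated osteoclasts. These 4 groups did not overlap, and Ifngr2 was 3.81-fold and 4.33-fold above Ifngr1 in untreated and LPS-treated osteoclasts. The ratio of Il10ra to Il10rb was 0.824 ± 0.069 in untreated macrophages and 6.43 ± 0.43 in LPS-treated macrophages. It was 0.0574 ± 0.0049 in untreated osteoclasts and 0.251 ± 0.077 in LPS-treated osteoclasts, where replicate 2 was lowest at 0.163. The chain with the lower level was Il10ra in osteoclasts and untreated macrophages, and Il10rb in LPS-treated macrophages. The ratios are given as values, and no model was fitted to them. An exact permutation test of 3 against 3 libraries cannot go below 0.10.

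**Figure D4:**
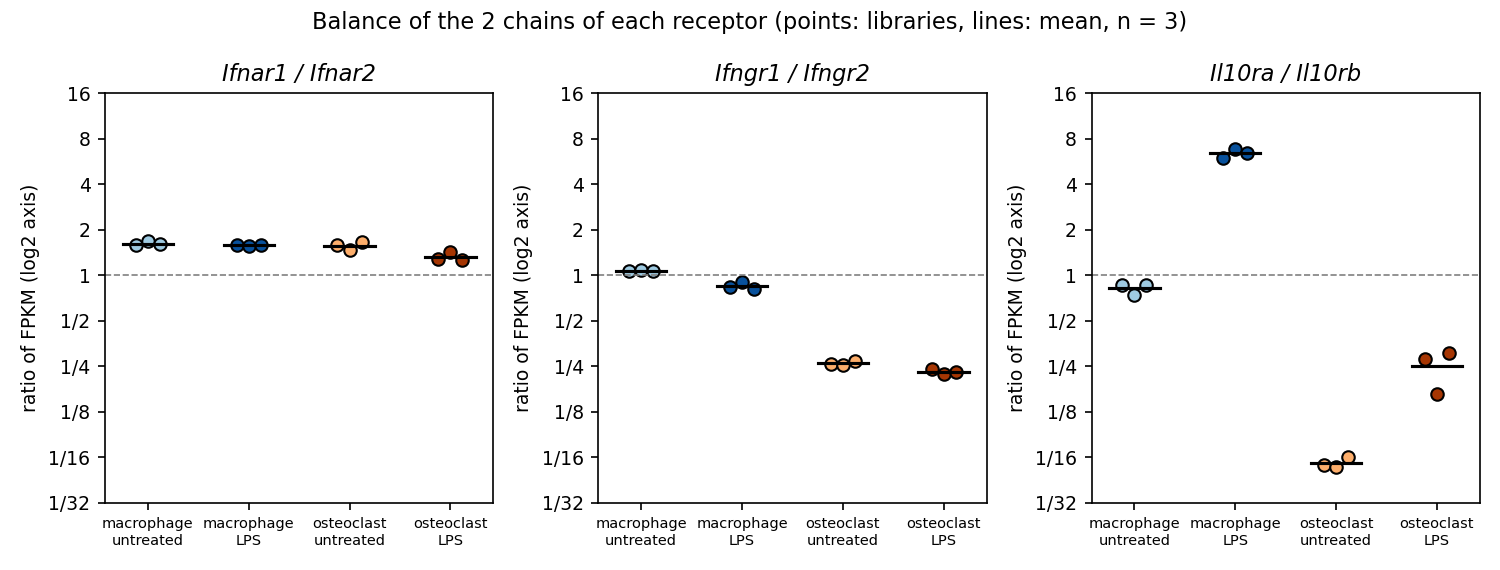
Ratio of the FPKM of the 2 chains of each receptor (vertical axis, log2 scale) in the 12 libraries, with points for libraries and lines for the mean of 3. The ratio of Ifnar1 to Ifnar2 stays between 1.26 and 1.69, that of Ifngr1 to Ifngr2 runs from 0.224 to 1.09, and that of Il10ra to Il10rb runs from 0.054 to 6.83.

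The order of the members by level per length differed between the cell types. In LPS-treated macrophages Il10ra was highest of the 8, at 221 FPKM, followed by Ifnar1 at 93.5 and Il10 at 82.6 FPKM. In osteoclasts Ifngr2 was highest in either condition, at 53.0 and 58.6 FPKM, followed by Il10rb at 26.4 and 25.8 FPKM, and Il10ra was the lowest receptor chain at 1.51 and 6.40 FPKM. In untreated macrophages the 6 receptor chains lay within 27.7 to 45.0 FPKM.

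Genes whose level followed a member across the 12 libraries were found by Pearson r of log2(FPKM + 1), as a description of 12 points that fall into 4 groups. Many genes matched as well, since 782 genes had an r above 0.95 with Ifnb1 and 162 with Ifngr2. The closest to Ifnb1 were Stk40 (0.998), Gem (0.998) and Zcchc2 (0.998), and those to Il10 were Crtc2 (0.998), Zcchc2 (0.998) and Xcr1 (0.997). Crtc2 is a coactivator of CREB, and its mean level was 7.27 FPKM in untreated and 22.8 FPKM in LPS-treated macrophages, against 6.98 and 8.27 FPKM in osteoclasts. Ifnb1 and Il10 had an r of 0.994 with each other.

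The closest genes to Il10ra were Gpr84 (0.999), Rcsd1 (0.999) and Marcks (0.998). Gpr84, a receptor for medium-chain fatty acids, had nearly the same mean levels as Il10ra, at 30.99, 243.6, 1.41 and 6.93 FPKM in untreated macrophages, LPS-treated macrophages, untreated osteoclasts and LPS-treated osteoclasts. Ifnar1 was closest to Ptger4, Asah2 and Adam9 (each 0.998), Ifnar2 to Bcl9 (0.999), Mmd (0.998) and Sf3b1 (0.998), and Ifngr1 to Plekhm3, Ctsb and Zfp385a (each 0.998). Ifngr2 was closest to Eif6 (0.991), Swap70 (0.990) and Lcp1 (0.989), and Il10rb to Fuca1 (0.987), Nsmf (0.986) and Lmnb2 (0.985).

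Among the genes that lead from LPS to interferon-beta, 4 of 8 rose with LPS in macrophages and 1 fell, with a median of 0.33. In osteoclasts 2 rose and 1 fell, with a median of 0.16. Over all genes tested, 36.8% rose and 33.1% fell in macrophages, and 11.1% and 6.59% in osteoclasts. The macrophage median of the 8 genes was -0.245 under TPM and 0.223 under quantile normalization. Tlr4, the LPS receptor, went from 14.4 to 9.86 FPKM in macrophages and from 4.38 to 2.79 FPKM in osteoclasts, and fell in each (log2 difference -0.50 and -0.51, adjusted p = 0.000234 and 0.00147, limma). Irf7, the factor that amplifies interferon production, rose from 6.39 to 110.7 FPKM in macrophages and from 1.17 to 8.68 FPKM in osteoclasts. Ikbke, a kinase related to Tbk1, rose from 5.75 to 42.6 FPKM and from 0.971 to 3.22 FPKM. Tbk1 rose in macrophages from 24.1 to 50.2 FPKM and held 23.1 and 22.4 FPKM in osteoclasts. Irf3 held 6.35 and 7.09 FPKM in macrophages and 7.33 and 7.24 FPKM in osteoclasts, and was not called in either.

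Before LPS, 4 of these 8 genes were lower in osteoclasts (Tlr4, Ticam2, Ikbke and Irf7) and 2 were higher (Ticam1 and Traf3). Of all genes tested, 39% were lower and 38.8% higher there. Ticam2, the adaptor that links Tlr4 to Ticam1, stood at 2.78 FPKM in untreated macrophages and at 0.262 FPKM in untreated osteoclasts, and Ticam1 at 5.10 and 13.8 FPKM. Of the 8 interactions, 4 were lower and 0 higher on the deposited scale, and 3 were lower and 5 higher under TPM, where most genes had a higher interaction. Under quantile normalization 3 were lower and 0 higher. The LPS effects in macrophages split into 3 higher and 3 lower under TPM.

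Of 8 regulators of Il10 transcription, 4 rose and 4 fell with LPS in macrophages (median 0.14). In osteoclasts 2 rose and 1 fell (median 0.09). Over all genes tested, 36.8% rose and 33.1% fell in macrophages, and 11.1% and 6.59% in osteoclasts. The macrophage median was -0.46 under TPM (3 higher, 4 lower) and 0.17 under quantile normalization (4 higher, 3 lower). Maf, an activator of Il10, was 43.5 FPKM in untreated and 18.9 FPKM in LPS-treated macrophages, and 2.31 and 1.12 FPKM in osteoclasts. It was 18.8-fold lower in untreated osteoclasts than in untreated macrophages (log2 difference -3.75, adjusted p = 1.42e-11, limma). Bhlhe40, known as a repressor of Il10, was 4.25 and 1.26 FPKM in untreated and LPS-treated macrophages and 72.8 and 80.1 FPKM in osteoclasts, 17.1-fold higher in untreated osteoclasts (3.82, adjusted p = 1.02e-12).

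Map3k8, a kinase upstream of ERK, rose from 1.97 to 60.6 FPKM in macrophages and from 1.21 to 3.67 FPKM in osteoclasts. Nfil3, a transcription factor, rose from 1.08 to 49.3 FPKM in macrophages and held 0.802 and 1.22 FPKM in osteoclasts (adjusted p = 0.0584, limma). Prdm1, a transcriptional repressor, rose from 2.11 to 20.6 FPKM in macrophages and was already at 19.5 FPKM in untreated osteoclasts. Of the 8 interactions, 3 were higher and 4 lower, and under TPM 4 were higher and 3 lower.

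Of 6 kinases and transcription factors next to the receptors, all 6 rose in macrophages with a median of 1.79, and 4 of the 6 rose in osteoclasts with a median of 0.81. Jak2 rose from 9.72 to 171 FPKM in macrophages and from 4.11 to 18.5 FPKM in osteoclasts. Stat3, the factor of IL-10 signalling, rose from 10.9 to 42.2 FPKM in macrophages, and held 8.65 and 9.78 FPKM in osteoclasts (log2 difference 0.16, adjusted p = 0.1, limma). Jak1 rose from 36.5 to 65.8 FPKM in macrophages and held 22.9 and 24.0 FPKM in osteoclasts.

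Before LPS, 5 of these 6 genes were lower in osteoclasts, among them Stat2 at 8.88 against 1.70 FPKM and Irf9 at 8.18 against 1.74 FPKM. The interaction was lower for 5 of 6. Irf9, a partner of Stat2, was the exception on the deposited scale, with log2 differences of 1.71 (macrophages) and 1.54 (osteoclasts) and an interaction term of -0.17 (adjusted p = 0.172, limma).

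Of 6 feedback inhibitors of these receptors, 5 rose and 1 fell in macrophages (median 5.25), and 4 rose in osteoclasts (median 1.40). With a pseudocount of 0.1 and by voom on recovered reads, 5 rose in osteoclasts, with medians of 2.32 and 3.06, beside 6.89 and 7.46 in macrophages. Socs3, which blocks cytokine signalling, rose from 1.18 to 886 FPKM in macrophages and from 0.163 to 13.5 FPKM in osteoclasts. Socs1, which limits interferon receptors, rose from 0.180 to 188 FPKM and from 0.281 to 5.52 FPKM. Usp18, which binds Ifnar2 and dampens its signal, rose from 1.08 to 136.9 FPKM and from 0.274 to 9.74 FPKM. Ptpn6, a phosphatase, fell in macrophages from 79.7 to 61.0 FPKM (-0.38, adjusted p = 8.44e-07, limma) and held 77.9 and 78.3 FPKM in osteoclasts. The interaction was lower for 5 of the 6 and higher for Ptpn6.

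Targets of type I interferon rose in each cell type, 12 of 12 in macrophages (median 8.18) and 12 of 12 in osteoclasts (median 4.73). With a pseudocount of 0.1 the medians were 8.75 and 6.27, and by voom on recovered reads 8.92 and 7.44, so the gap between the cell types was smaller there. Ifit1 rose from 2.36 ± 0.25 to 2777 ± 149 FPKM (SD, n = 3) in macrophages and from 0.511 ± 0.225 to 121 ± 37 FPKM in osteoclasts. Rsad2 rose from 2.63 to 2995 FPKM and from 0.262 to 110.1 FPKM. Osteoclasts were lower before LPS for 11 of the 12, with Oasl1 as the exception at 1.15 against 1.11 FPKM. The interaction was lower for all 12 on the deposited scale (median -3.27) and for 11 under TPM, but for only 6 by voom on recovered reads, where the other 6 were not called (median -1.53). Replicate 2 was the lowest LPS-treated osteoclast library for Ifit1 (79.4 FPKM, beside 133.9 and 150) and for Rsad2 (74.3 FPKM, beside 113.1 and 143).

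Of 8 targets of interferon-gamma, 7 were tested, and all 7 rose in macrophages (median 5.52) and in osteoclasts (median 2.81, and 3.65 by voom on recovered reads). Ifng had no read in any library. Irf1 rose from 7.18 to 374.6 FPKM in macrophages and from 2.60 to 20.6 FPKM in osteoclasts. Gbp2 rose from 1.60 to 418.6 FPKM and from 0.262 to 21.9 FPKM. The interaction was lower for all 7 on the deposited scale, for 6 under TPM and under quantile normalization, and for 5 by voom on recovered reads. Ciita, which controls MHC class II genes, did not pass the filter, with at most 0.279 FPKM.

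Of 7 targets of IL-10, 7 rose in macrophages (median 3.54) and 5 in osteoclasts (median 0.43). The osteoclast count was 4 under either rescaling and 6 with a pseudocount of 0.1 (median 0.51). The interaction was lower for all 7. Il1rn, the interleukin-1 receptor antagonist, rose from 1.43 to 123 FPKM in macrophages and from 15.98 to 21.8 FPKM in osteoclasts, and was 11.2-fold higher in osteoclasts before LPS. Il4ra, a chain of the interleukin-4 receptor, rose from 50.6 to 248 FPKM in macrophages and held 5.14 and 6.00 FPKM in osteoclasts (adjusted p = 0.141, limma). Bcl3, an NF-kB regulator, rose from 8.66 to 111.1 FPKM and from 9.67 to 23.9 FPKM. The target lists share genes with the lists above (Usp18 and Irf7, Socs3 and Nfil3).

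Among 9 other ligands and receptors of the IL-10 family, 2 were tested. Il19, a cytokine of that family, stood at 11.9, 10.3 and 12.8 FPKM in LPS-treated macrophages and at most 0.095 FPKM in any other library, 558 reads against 8. Il20rb, a chain of the receptor for that cytokine, rose from 0.546 to 3.18 FPKM in macrophages and from 0.511 to 1.03 FPKM in osteoclasts (0.42, adjusted p = 0.016, limma).

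On chromosome 16, 4 receptor chains of the set lie side by side, in the order Ifnar2, Il10rb, Ifnar1 and Ifngr2, within 191225 bases by RefSeq on GRCm38.p6, and 567 bases separate Ifnar2 from Il10rb. On the deposited scale Il10rb was not called under LPS in macrophages where the flanking Ifnar2 and Ifnar1 rose. With the next 5 genes (Tmem50b, Dnajc28, Gart, Son and Donson), 5 of 9 rose and 2 fell in macrophages (median 0.13). Over all genes tested, 36.8% rose and 33.1% fell. Under TPM 2 of the 9 rose and 6 fell, where all genes split into 1797 higher and 7933 lower. In osteoclasts 1 of the 9 rose on the deposited scale, which was Ifngr2, beside 11.1% of all genes tested. Under either rescaling 0 of the 9 rose. Dnajc28 went from 1.11, 1.04 and 0.768 FPKM in untreated macrophages to 0.044, 0 and 0.020 FPKM with LPS, or from 240 reads to 3, and held 1.64 and 1.40 FPKM in osteoclasts.

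Some values are less certain because of shared sequence. Ifnar2 shares 315 exonic bases (9.46% of its exons) and Il10rb 569 (14.9%) with Gm21970, a gene annotated across them on the same strand, which was listed at 0 in all 12 libraries. No other member shares exon sequence with an annotated gene. Whether reads were counted by strand is not given in the sources used here, so genes whose exons overlap one on the opposite strand are uncertain, among them Irf1, Irf3, Irf7, Maf, Bhlhe40, Bcl3, Il4ra, Ptpn6, Ikbke, Usp18, Tyk2, Stat3, Jak1, Oasl1, Gbp2, Csf1r, Gart, Son and Donson. Irf9 and Ticam2 overlap a same-strand gene in their exons and are uncertain as well. Among the pathway genes above, Socs1, Cish, Usp18, Mx2, Gbp5, Cxcl9, Nfil3, Il19 and Il20rb passed the filter on low values only with the help of the LPS-treated groups, so their part in the counts followed from the filter.

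Markers of other cell types were compared for their place beside these results. Macrophage markers summed to 2101 to 2176 FPKM in untreated and 3177 to 3244 FPKM in LPS-treated macrophages, and to 1731 to 1809 and 1740 to 1830 FPKM in osteoclasts, where Cd68 and Csf1r made up most of the sum. Of these 8 markers, 7 were lower and 1 was higher in osteoclasts, both without and with LPS. Mrc1, the mannose receptor of macrophages, was among the lower ones. It stood at 290.4 to 295.8 FPKM in untreated macrophages, 2.39 to 2.80 FPKM in untreated osteoclasts, and 3.35, 1.62 and 3.41 FPKM in LPS-treated osteoclasts. Of the 7 T and NK cell markers, Cd3d, Cd3g, Cd8a and Ncr1 had no read in any group, and the list summed to at most 0.719 FPKM. B cell markers summed to at most 0.134 FPKM and mast cell and basophil markers to at most 0.379 FPKM. Plasmacytoid dendritic cell markers summed to 4.36 to 4.50 and 9.21 to 10.9 FPKM in untreated and LPS-treated macrophages and at most 1.81 FPKM in osteoclasts, nearly all of it Tcf4. Conventional dendritic cell markers summed to at most 6.27 FPKM, and neutrophil and granulocyte precursor markers to at most 15.5 FPKM, each highest in LPS-treated macrophages. Stromal and endothelial markers summed to 20.1 to 28.7 FPKM in macrophages, most of it Col1a1, and at most 0.696 FPKM in osteoclasts. The part of any of these cells in the members' levels was not tested.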

How the data were processed

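RNA was sequenced in 12 libraries, 4 groups of 3 set by the sample titles. The authors deposited FPKM for 54532 Ensembl genes. The submitters' processing notes name fastp, STAR, featureCounts, DESeq2 and build mm10, without versions or roles. From the values, whole reads were recovered for 25806 of 25854 genes above 0 (99.81%, tolerance 0.02 reads) with GENCODE M21 exon lengths or the smallest fitting length. Denominators departed by at most 1e-05% from median-of-ratios size factors times the geometric mean of read totals, so values are relative to the typical gene. This scale is inferred and not stated in the sources used here.

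The 11335 genes tested, with all 8 members among them, reached 1 FPKM in at least 3 libraries. They were tested by limma 3.58.1 in R 4.3.3 with a variance trend on log2(FPKM + 1), 1 mean per group over all 12 libraries, 5 contrasts, two-sided, adjusted by Benjamini-Hochberg and called under 0.05. A fold is a ratio of mean FPKM, and a fold against a group at 0 used a floor of 3 reads per library. The steps were tested on simulated data. Motifs and values were handled in Python 3.11.15.

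All members were named, with the 3 genes most alike to each by Pearson r and any gene of the lists as an example of its list's count. Members and lists were chosen with earlier results of these data known. Lists were described by counts and medians and given no test. A gene of the lists is not reported here and was left out of the counts. Results were recomputed with a pseudocount of 0.1, a filter at a mean of 5 FPKM or none, TPM, quantile normalization, only the groups compared, the replicate block, no variance trend, voom on recovered reads, and each library left out. Il10, Il10ra and Il10rb have no printed promoter.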

Additional observations from a re-analysis of the deposited data

Results flagged for a closer look

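The difference of the LPS effects, osteoclasts minus macrophages, was tested as an interaction (limma, adjusted over 11335 genes), and it differed from 0 for 7 of the 8 genes, each in the direction of a smaller effect in osteoclasts. It was -5.09 for Ifnb1, -4.70 for Il10, -1.34 for Il10ra, -1.14 for Ifnar1, -0.94 for Ifnar2, -0.55 for Ifngr2 and -0.40 for Ifngr1, on the log2(FPKM + 1) scale. Ifnb1 passed the filter on low values only through LPS-treated macrophages and Il10 only through the LPS-treated groups, so their part in this count followed from the filter. For Ifnb1, Il10, Il10ra, Ifnar1 and Ifnar2 the call held under both rescalings, and for Ifngr1 and Ifngr2 it did not. The values under TPM and quantile normalization were smaller for Il10ra (-0.49 and -0.71), Ifnar1 (-0.58 and -0.55) and Ifnar2 (-0.38 and -0.46). Il10rb was called higher (0.59 and 0.51). Of all genes tested, 56.6% had a called interaction.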

How the results depend on the processing

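Leaving out a library kept the call, and the direction of a called result, in 475 of 480 comparisons of a result with an alternative. The settings that neither left out a library nor rescaled the values kept them in 270 of 272, and rescaling in 60 of 80. The direction of a result without a call was not counted. Leaving out a library outside the groups compared could not change the difference, only its SE and call. Under TPM and quantile normalization, Ifngr1 reversed in the macrophage LPS effect (-0.274 and -0.275, called in each). The interactions of Ifngr1 (0.166 and 0.157) and Ifngr2 (0.013 and 0.018) changed sign but were not called. Ifngr2 also changed sign between untreated cell types under TPM, without a call (-0.081, adjusted p = 0.139, limma). Between LPS-treated cell types it reversed under quantile normalization (0.123, adjusted p = 0.0101, limma). The cause was not tested beyond the shift of all genes that a rescaling brings, whose median moved from 0.02 to -0.55 in macrophages under TPM. Il10 between untreated cell types passed the threshold under TPM (-0.749, adjusted p = 0.0167, limma). The number of called members with each library left out was 3 to 4 in osteoclasts, and stayed at 7 in macrophages, 6 and 8 between cell types without and with LPS, and 7 for the interaction. With the groups compared alone, or without the variance trend, 3 members were called in osteoclasts, since Ifngr2 was lost (adjusted p = 0.0625 and 0.0554, limma). Counts of all genes called in osteoclasts ran from 1394 with the groups compared alone to 2461 under quantile normalization, beside 2008.

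The labels do not say whether the replicate numbers in the titles pair the samples, and the weak correlations found cannot settle it. Same-numbered libraries had correlations of their deviations from -0.07 to 0.104 over 18 pairs. Of the 12 libraries, 7 correlated best with their own number. With the replicate block, 7 members were called in macrophages, 4 in osteoclasts, 6 and 8 between cell types without and with LPS, and 7 for the interaction, the same numbers as without the block. With 3 libraries per group, Ifnb1 and Il10 in osteoclasts rest on few reads, 31 and 120 in all with LPS.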
